A study of Homo sapiens with 36 samples.

Results

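Enzyme genes that make or move the nitrogen of amino acids, 8 in all, were followed through glucose deprivation and the silencing of ATF4 and ATF6 in A549 cells. These are ASNS, GOT1, GOT2, GPT2, BCAT1, GLUL, PYCR1 and ALDH18A1, taken by gene symbol from a table of 60662 gene IDs, and all 8 members were found and passed the filter on low counts. A549 is a human lung adenocarcinoma line. Cells received 100 nM of a non-targeting siRNA (siControl) or of siRNA against ATF4 (siATF4) or ATF6 (siATF6), and each transfected culture was later split between wells. They were then held for 6 or 16 h in medium with 25 mM glucose or with none (0 mM), in both cases without pyruvate and with dialysed serum and glutamine. That makes 12 groups of 3 biological replicates, 36 libraries in all. Every group carries a transfected siRNA, and no group of untransfected cells was analysed here. The sequences of the siRNAs, and whether each was a pool, are not given in the sources used here.

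Asparagine synthetase (ASNS) amidates aspartate with the amide nitrogen of glutamine. Aspartate itself comes from oxaloacetate through the aspartate aminotransferases of the cytosol (GOT1) and of mitochondria (GOT2), which also carry the malate-aspartate shuttle. GPT2, the mitochondrial alanine aminotransferase, interconverts glutamate and pyruvate with 2-oxoglutarate and alanine, and BCAT1 does the like with branched-chain amino acids in the cytosol. GLUL, glutamine synthetase, makes glutamine from glutamate and ammonia. Proline synthesis from glutamate starts with ALDH18A1 and ends with PYCR1, both mitochondrial. ATF4, made when the integrated stress response slows translation, switches on genes of amino acid synthesis and uptake, and ASNS is among its best known targets. ATF6 sits in the membrane of the endoplasmic reticulum until stress releases it, and acts mainly on the chaperones of that organelle.

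A stretch of promoter was printed for the members in which a short element was found. The composite element bound by ATF4 and CCAAT-enhancer proteins holds the bases TGATGNAA, where N is any base. They were searched for on both strands of RefSeq promoters (GRCh38.p14), 250 bases before to 50 after each start. Promoters of 6 of the 8 members were on hand, in 12 windows. GPT2 and PYCR1 had no entry. The letters stood in 3 windows, 1 each for ASNS, GOT1 and BCAT1, and in 3.63% of all 34796 promoters of this length. Every match found is shown, whatever the expression of its gene. Whether a match bears on expression was not tested. The minus strand is given 5′ to 3′, with the match in capitals.

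ASNS (chr7:97872458-97872487, match 68 to 61 bases before the start): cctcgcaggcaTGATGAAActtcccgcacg
GOT1 (chr10:99430804-99430833, match 198 to 191 bases before the start, on the opposite strand): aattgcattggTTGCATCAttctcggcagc
BCAT1 (chr12:24949131-24949160, match 48 to 41 bases before the start): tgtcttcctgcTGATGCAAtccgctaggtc

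The endoplasmic reticulum stress element bound by ATF6 (CCAAT and CCACG 9 bases apart, both strands) was in none of the 12 windows and in 0.0776% of all promoters. A match describes these letters only. Binding was not measured.

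Sequencing depth was 39.4 to 78.7 M counts in 35 libraries. Replicate 3 of siATF4 without glucose at 6 h had 2.87 M and stood apart. No library correlated with it above -0.0033, where the lowest median correlation among the rest was 0.970, so it was left out of the fits unless stated. The labels of further libraries bear on the results at 6 h. The pairs of libraries labelled replicate 2 in siControl and siATF6 ran against their glucose labels: over 1413 genes that changed at 16 h, their log2 ratio of 0 over 25 mM correlated with the 16 h change at -0.764 and -0.752, against 0.681 to 0.767 in the 6 other pairs. These are correlations across genes, and genes are no independent replicates. ATF6 mRNA was lower in siATF6 than in siControl cells at 16 h, with log2 fold changes of -2.36 in 25 mM and -2.58 in 0 mM. ATF4 mRNA in siATF4 cells differed by -1.29 in 0 mM (adjusted p = 0.000186 in edgeR), while in 25 mM it differed from siControl by -0.28 (adjusted p = 0.759). The keratins KRT7, KRT8 and KRT18 marked all 35 libraries at no less than 1418 CPM (counts scaled to a common library depth). The other epithelial markers were lower: KRT19 lay between 97.0 and 260 CPM, CDH1 between 7.73 and 36.7, and EPCAM between 1.88 and 7.64. CD3E and MS4A1 of lymphocytes were at 0. Of the other 8 markers of blood, vessel, stroma and muscle, CD14 (0.576 to 8.02 CPM) and COL1A1 (2.68 to 39.0 CPM) were the highest. The 10 summed to 26.4 to 28.3 CPM in siControl cells with glucose at 16 h and to 8.92 to 12.1 CPM without it, and their part in the results was not tested.

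Of the 8 members, 5 share exon bases with other genes, and the libraries do not keep the strand. ASNS (chromosome 7, 97851677 to 97872542, minus strand) shares 44.6% of its exon bases with AC079781.5 on the same strand in GENCODE 29. ASNS held 87.4 to 95.6% of the counts summed over this pair in the 35 libraries. GOT1 (chromosome 10, 99396870 to 99430624, minus strand) shares 19.3% with AL391684.1 on the opposite strand. PYCR1 (chromosome 17, 81932384 to 81942412, minus strand) shares 15.6% with AC145207.4 on the opposite strand and 14.1% with MYADML2 on the same strand. GOT2 shares 4.3% and BCAT1 at most 1.77% with any 1 gene, on the opposite strand. The annotation release behind the counts is not given, and the bases shared in that release were not measured. How the reads of such exons were divided cannot be told from the table. The other members lie on chromosome 16 (GOT2, 58707131 to 58734342, minus strand; GPT2, 46884362 to 46931289, plus strand), 12 (BCAT1, 24810024 to 24949101, minus strand), 1 (GLUL, 182381704 to 182392206, minus strand) and 10 (ALDH18A1, 95605941 to 95656711, minus strand).

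Levels of different genes were compared per length, as TPM, which scales counts by gene length and depth. In siControl cells in 25 mM glucose at 16 h, GOT2 was the most abundant of the 8 at 165 ± 0.570 TPM (SD, n = 3), followed by PYCR1 (104 ± 7.23), ASNS (75.8 ± 4.78), ALDH18A1 (45.4 ± 5.71), GOT1 (33.8 ± 2.04), GLUL (17.8 ± 3.88), GPT2 (11.2 ± 0.888) and BCAT1 (7.55 ± 1.72). No neighbours in this order overlapped between replicates. After 16 h without glucose the order had become PYCR1 (275 ± 38.7 TPM), ASNS (186 ± 33.8), GOT1 (155 ± 25.0), GOT2 (112 ± 5.56), ALDH18A1 (33.2 ± 0.646), BCAT1 (26.6 ± 3.72), GPT2 (20.02 ± 1.38) and GLUL (17.7 ± 8.14). There, ASNS overlapped GOT1, and GPT2 overlapped GLUL. GOT2 thus passed from the first to the fourth place.

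In siControl cells 5 of the 8 genes rose over 16 h without glucose and 2 fell. Those higher were GOT1, BCAT1, PYCR1, ASNS and GPT2, those lower GOT2 and ALDH18A1, and GLUL did not pass the test. The test was edgeR's quasi-likelihood F test over all 18013 genes of the 16 h libraries, with Benjamini-Hochberg adjustment and a threshold of 0.05. By the same rule 29.0% of all genes were called in either direction, 14.6% as higher. The median log2 change was 1.1996 over the 8 members and 0.01 over all genes.

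Among the genes of aspartate and asparagine, ASNS was at 85.8, 107 and 101 CPM in replicates 1 to 3 in 25 mM glucose and at 320, 246 and 225 CPM in 0 mM. All 3 deprived libraries lay above all 3 controls, for a log2 fold change of 1.43 (SE 0.152, adjusted p = 4.09e-06 in edgeR). The overlapping AC079781.5 changed alike, by 1.04 (adjusted p = 0.000588). GOT1, the cytosolic transaminase, went from 38.7, 48.0 and 43.0 CPM to 259, 204 and 190 CPM. This 5.03-fold rise was the largest of the 8 (log2 fold change 2.33, SE 0.154, adjusted p = 2.71e-08 in edgeR). Its mitochondrial counterpart GOT2 moved the other way, from 246, 270 and 261 CPM to 183, 205 and 192 CPM (log2 fold change -0.43, SE 0.0989, adjusted p = 0.00405). The ratio of GOT1 to GOT2, per length, rose accordingly from 0.205 ± 0.0126 to 1.40 ± 0.301 (SD, n = 3), so that the transcript of the cytosolic enzyme came to exceed that of the mitochondrial one in each deprived library.

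The other transaminases rose as well. GPT2 was at 27.7, 26.4 and 26.4 CPM in 25 mM glucose and at 54.3, 49.9 and 54.0 CPM in 0 mM, with little spread in either group (log2 fold change 0.97, SE 0.0872, adjusted p = 7.27e-07 in edgeR). BCAT1 went from 42.6, 32.4 and 31.2 CPM to 161, 128 and 125 CPM, a 3.89-fold rise (log2 fold change 1.96, SE 0.285, adjusted p = 8.48e-05). Within each group replicate 1 was the highest for BCAT1.

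The ends of the proline pathway parted. PYCR1, the last enzyme, rose from 113, 137 and 116 CPM to 299.5, 402 and 365 CPM (log2 fold change 1.54, SE 0.225, adjusted p = 8.73e-05 in edgeR). ALDH18A1, the first enzyme, fell from 113, 101 and 97.7 CPM to 82.4, 87.6 and 81.9 CPM (log2 fold change -0.31, SE 0.0873, adjusted p = 0.0136). The ALDH18A1 call was lost without siControl in 25 mM, replicate 1 (-0.25, adjusted p = 0.0759), and without siControl in 0 mM, replicate 3 (-0.28, adjusted p = 0.0696). The ratio of PYCR1 to ALDH18A1, per length, stood at 2.31 ± 0.345 in 25 mM and at 8.27 ± 1.02 in 0 mM. GLUL was at 25.8, 21.3 and 18.2 CPM and at 36.8, 16.9 and 18.2 CPM. Its log2 difference of 0.13 had a 95% interval of -0.60 to 0.87, and without the high replicate 1 in 0 mM it was -0.32.

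**Figure D1:**
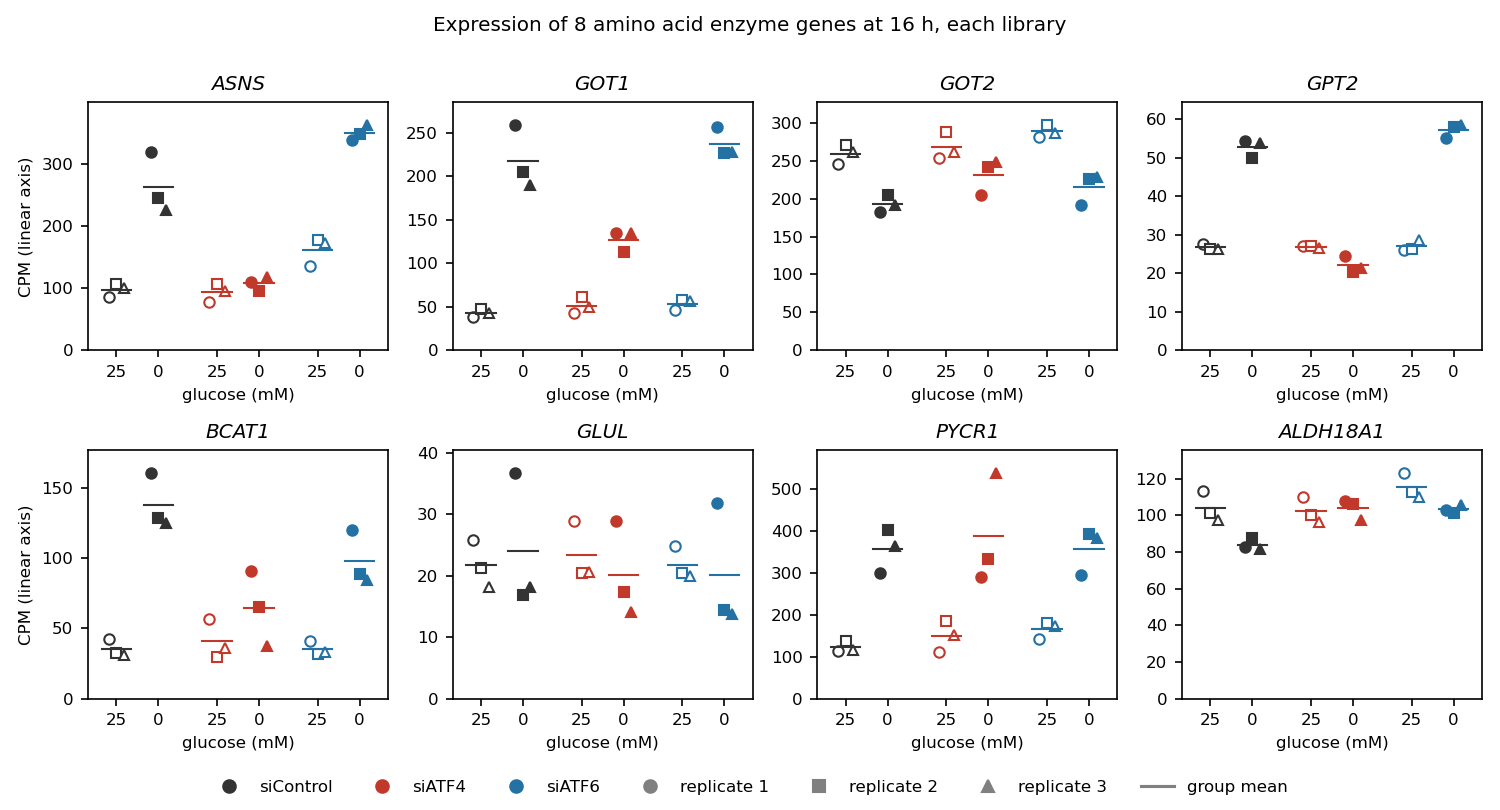
Level of each of the 8 genes (CPM, linear axis) in the 18 libraries of 16 h, by glucose (mM) and siRNA; symbols mark replicates and bars group means. GPT2 in 0 mM glucose lies at 49.9 to 54.3 CPM in siControl and at 55.1 to 58.6 CPM in siATF6, and at 20.4 to 24.5 CPM in siATF4.

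With ATF4 silenced, 2 of the 8 rose without glucose and 1 fell. In siATF4 cells GOT1 and PYCR1 rose, GPT2 fell, and the other 5 did not pass, where 29.1% of all genes were called. The median log2 change over the 8 members was 0.10, and over all genes it was -0.01. ASNS stayed at 110, 96.1 and 117 CPM without glucose against 78.2, 107 and 96.0 CPM with it. These groups overlapped, and the log2 difference was 0.19 (95% interval -0.13 to 0.50, adjusted p = 0.371 in edgeR). GPT2 went from 27.0, 27.1 and 26.6 CPM down to 24.5, 20.4 and 21.5 CPM, a log2 fold change of -0.30 (adjusted p = 0.0168) against the rise of 0.97 in siControl. The call of this fall was lost without siATF4 in 25 mM, replicate 1 (adjusted p = 0.0513), and without siATF4 in 0 mM, replicate 2 (adjusted p = 0.0514).

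GOT1 still rose in siATF4 cells, from 42.5, 61.0 and 50.2 CPM to 135, 112 and 134 CPM (log2 fold change 1.29, SE 0.149, adjusted p = 1.41e-05 in edgeR). PYCR1 went from 111, 185 and 152 CPM to 289, 333 and 538 CPM (log2 fold change 1.36, SE 0.223, adjusted p = 0.000351). BCAT1 was at 56.5, 29.98 and 36.1 CPM with glucose and at 90.7, 64.9 and 37.3 CPM without it, and its difference of 0.63 missed the threshold (adjusted p = 0.0989). Replicate 3 without glucose was the highest of its group for PYCR1 and the lowest for BCAT1, and it had the lowest scaling factor of all libraries (0.775). Without it, BCAT1 passed with 0.90 (adjusted p = 0.0128), GOT2 passed with -0.28 (adjusted p = 0.0489), and 5 of the 8 genes were called instead of 3, beside 27% of all genes. BCAT1 passed as well without siATF4 in 25 mM, replicate 1 (0.94, adjusted p = 0.0303), and with the transfected culture as a block (0.60, adjusted p = 0.0241). With all libraries GOT2 in siATF4 cells was at -0.22 (adjusted p = 0.101) and GLUL at -0.23 (95% interval -0.97 to 0.50).

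The difference between the responses of siATF4 and siControl cells was tested as an interaction. It passed for 2 of the 8, GPT2 and ASNS, against 0.172% of all genes. GPT2 had the smallest p of all 18013 genes, with a response lower by -1.27 on the log2 scale (SE 0.123, adjusted p = 0.000345 in edgeR). That of ASNS was lower by -1.24 (SE 0.211, adjusted p = 0.0237) and stood in place 20 by p. In each replicate the ratio of 0 over 25 mM was smaller in siATF4 than in siControl, for ASNS 0.50, -0.15 and 0.29 against 1.90, 1.201 and 1.16 on the log2 scale. Without any 1 of 6 libraries the ASNS call was lost, with adjusted p from 0.0567 to 0.0926: each of the 3 siControl libraries in 25 mM, replicate 1 of siControl in 0 mM, and replicates 2 and 3 of siATF4 in 25 mM. The GPT2 call held with any 1 library left out. With the transfected culture as a block, since each was split between wells, ASNS no longer passed (-1.22, adjusted p = 0.137) and GPT2 did (-1.28, adjusted p = 0.0162). With the replicate number as a block, GOT1 and BCAT1 passed beside ASNS and GPT2, where 0.794% of all genes were called.

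Of the members that missed the threshold in this test, GOT1 was nearest at -1.04 (SE 0.208, adjusted p = 0.0615 in edgeR), and it passed in DESeq2 (adjusted p = 0.00218) and without siATF4 in 25 mM, replicate 1 (adjusted p = 0.0447). BCAT1 had a point estimate as large as that of GPT2, -1.33, with an SE of 0.391 (adjusted p = 0.306). PYCR1 was at -0.18 with a 95% interval of -0.84 to 0.48. GOT2 (0.20), ALDH18A1 (0.32, adjusted p = 0.492) and GLUL (-0.37) did not pass either.

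**Figure D2:**
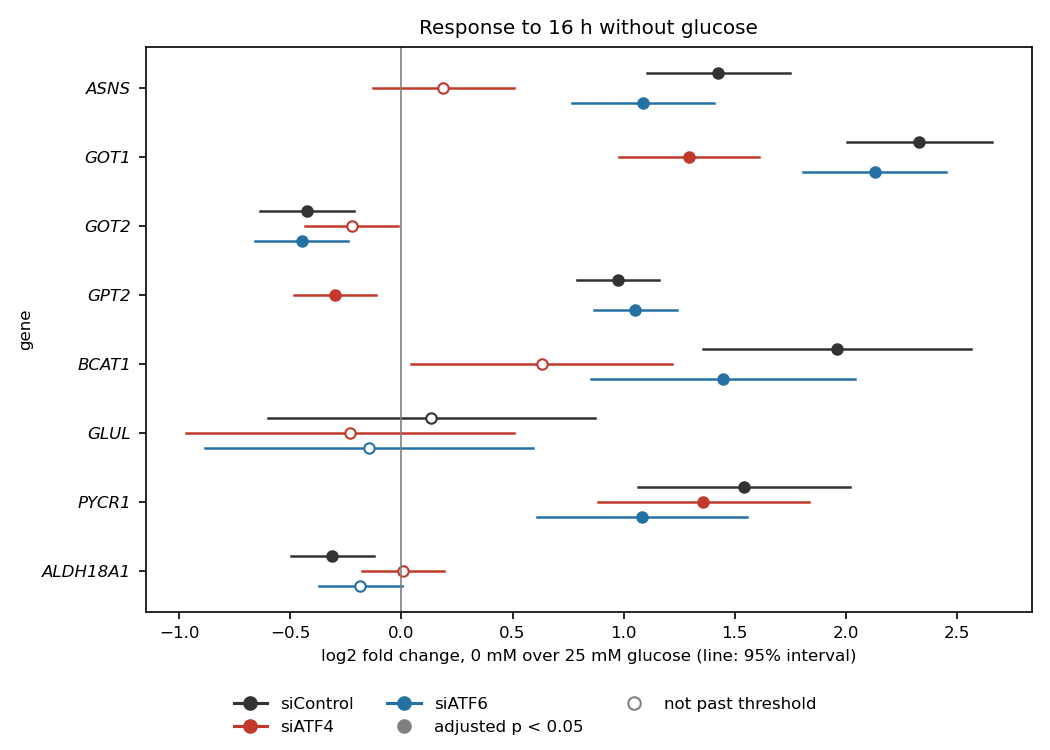
Log2 fold change of 0 over 25 mM glucose at 16 h for each gene in siControl, siATF4 and siATF6 cells, with 95% intervals; filled points passed an adjusted p of 0.05. For GPT2 the siControl and siATF6 values (0.97 and 1.05) lie on the other side of 0 from the siATF4 value (-0.30), and for PYCR1 the 3 intervals overlap.

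Within a medium, siATF4 and siControl cells were compared directly. In 25 mM glucose none of the 8 was called (edgeR, 0.0444% of all genes called; 1248 genes at an unadjusted p under 0.05, and 170 called by DESeq2, none of them a member). The members' log2 differences there ran from -0.06 (ASNS) to 0.29 (PYCR1), and ATF4 mRNA itself was no different past the threshold in that medium. In 0 mM glucose 4 were lower and 1 higher, where 12.4% of all genes were called and 5.09% of all genes as lower. GPT2 was lower by a log2 fold change of -1.27 (SE 0.0879, adjusted p = 3.29e-06 in edgeR), the smallest p of all genes. ASNS was lower by -1.30 (SE 0.151, adjusted p = 0.000249), BCAT1 by -1.12 (SE 0.278, adjusted p = 0.0202) and GOT1 by -0.79 (SE 0.147, adjusted p = 0.00497). Libraries of siATF4 and siControl did not overlap for 6 of the 8 members, these 4 among them. GOT2, another of the 6, did not pass the test. The share of all genes without overlap was not counted.

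ALDH18A1 was higher in siATF4 than in siControl cells without glucose, at 108, 106 and 97.7 CPM against 82.4, 87.6 and 81.9 CPM (log2 fold change 0.29, SE 0.0873, adjusted p = 0.0411 in edgeR). PYCR1 differed by 0.11 (95% interval -0.36 to 0.58), GOT2 by 0.25 (adjusted p = 0.103) and GLUL by -0.27 (95% interval -1.004 to 0.47). The count of 5 fell to 3 without siControl in 0 mM, replicate 1 (5.96% of all genes called), and without siControl in 0 mM, replicate 3 (2.95%), where BCAT1 and ALDH18A1 no longer passed. BCAT1 was also lost without siATF4 in 0 mM, replicate 3 (-0.85, adjusted p = 0.0691), and the ALDH18A1 call held with that library left out but with none of the 5 others. With a spread estimated only from the 6 libraries compared, none of the 8 passed, nor did any other gene.

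With ATF6 silenced, GOT1, BCAT1, ASNS, PYCR1 and GPT2 rose and GOT2 fell. In siATF6 cells 5 of the 8 rose without glucose and 1 fell, where 33.5% of all genes were called. The 5 that rose in siControl cells are these 5. GOT1 rose by 2.13 (adjusted p = 6.16e-08 in edgeR), BCAT1 by 1.45 (adjusted p = 0.000866), ASNS by 1.09 (adjusted p = 4.33e-05), PYCR1 by 1.08 (adjusted p = 0.00136) and GPT2 by 1.05 (adjusted p = 2.90e-07), and GOT2 fell by 0.45 (adjusted p = 0.00231). GPT2 went from 26.1, 26.4 and 28.8 CPM to 55.1, 58.1 and 58.6 CPM. ALDH18A1 was at -0.18 (adjusted p = 0.117) and GLUL at -0.15 (95% interval -0.88 to 0.59).

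The interaction of siATF6 with deprivation passed for none of the 8 and for 0% of all genes in edgeR (412 genes at an unadjusted p under 0.05, and 18 called by DESeq2, none of them a member). For GPT2 it was 0.08 with a 95% interval of -0.18 to 0.34. This test shares its siControl libraries with the interaction of siATF4. For ASNS it was -0.34 (95% interval -0.79 to 0.11) and for BCAT1 -0.51 (95% interval -1.34 to 0.31).

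ASNS was the 1 member that differed between siATF6 and siControl within a medium. In 25 mM glucose it stood at 136, 178 and 172 CPM in siATF6 cells against 85.8, 107 and 101 CPM, higher by 0.73 (SE 0.150, adjusted p = 0.0328 in edgeR), where 0.749% of all genes were called. ATF4 mRNA was at 242, 189 and 181 CPM there, against 180, 147 and 145 CPM (0.38, adjusted p = 0.297). The ASNS call was lost without any 1 of 5 of the 6 libraries compared, with adjusted p from 0.1004 to 0.213, and held without siATF6 replicate 1. PYCR1 (0.45, adjusted p = 0.490) and GOT1 (0.31, adjusted p = 0.470) did not pass. In 0 mM glucose none of the 8 was called, against 4.02% of all genes (725 genes). ASNS was then at 339, 349 and 363 CPM in siATF6 cells, above the 3 siControl libraries, with a difference of 0.39 (adjusted p = 0.161). BCAT1 was at -0.51 (adjusted p = 0.353) and ALDH18A1 at 0.28 (adjusted p = 0.0844, and 0.00532 in DESeq2).

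Directly against each other without glucose, siATF4 cells held less ASNS, GPT2 and GOT1 than siATF6 cells, 3 of the 8 where 8.26% of all genes were called. The log2 fold changes were -1.70 for ASNS (SE 0.153, adjusted p = 1.67e-05 in edgeR), -1.37 for GPT2 (SE 0.0881, adjusted p = 5.44e-07, in place 2 of all genes by p) and -0.90 for GOT1 (SE 0.147, adjusted p = 0.00186). BCAT1 was at -0.61 (adjusted p = 0.188), and it passed without siATF4 in 0 mM, replicate 1 (-0.93, adjusted p = 0.0436). With only the 6 libraries compared, ASNS was the 1 member that passed, where 0.0424% of all genes were called. The ratio of GOT1 to GOT2, per length, was 0.684 ± 0.118 in siATF4 cells without glucose against 1.37 ± 0.238 in siATF6 and 1.40 ± 0.301 in siControl cells (SD, n = 3), and the siATF4 libraries lay below all others.

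**Figure D3:**
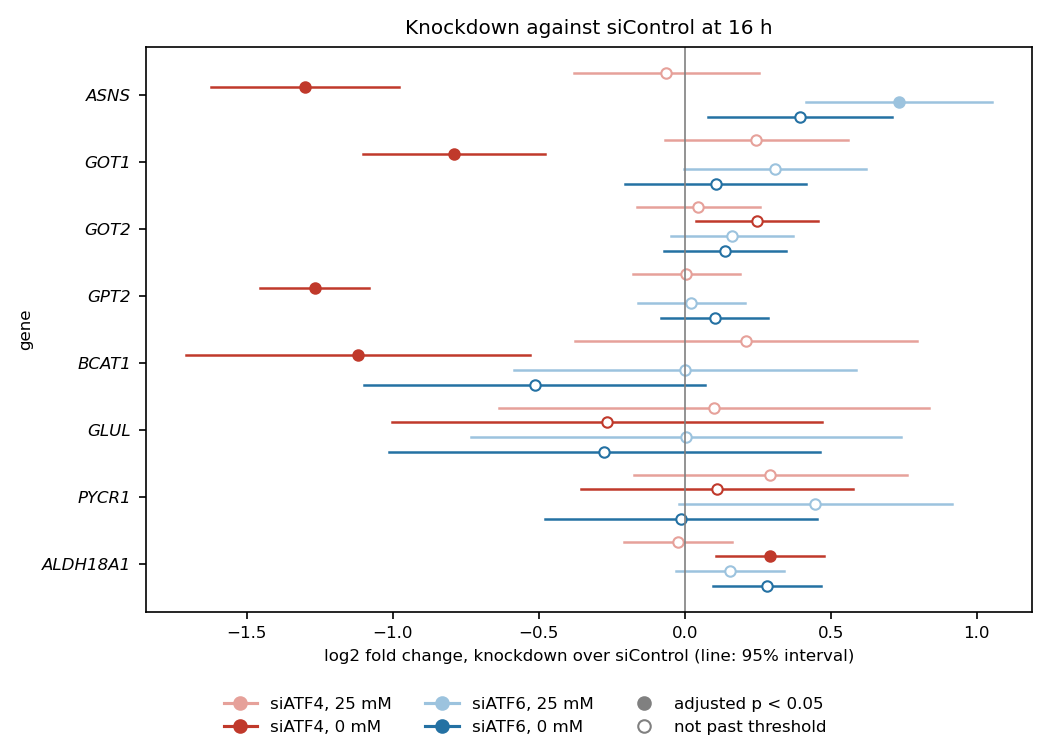
Log2 fold change of each knockdown over siControl at 16 h in 25 and in 0 mM glucose, with 95% intervals; filled points passed an adjusted p of 0.05. In siATF4 cells without glucose ASNS, GPT2, BCAT1 and GOT1 lie between -1.30 and -0.79, while the values in 25 mM glucose lie near 0.

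At 6 h no member responded to deprivation by the labels. In siControl, siATF4 and siATF6 cells alike 0 of the 8 and 0% of all 18355 genes were called in edgeR (181, 695 and 148 genes at an unadjusted p under 0.05; 1, 0 and 0 called by DESeq2). ASNS in siControl cells was at 173, 149 and 136 CPM with glucose and at 225, 60.1 and 185 CPM without it, where the low value is replicate 2. The members' log2 differences ran from -0.18 (GPT2) to 0.17 (GOT1) in siControl, from -0.16 (GLUL) to 0.22 (GOT1) in siATF4 with 2 libraries in 0 mM, and from -0.26 (GPT2) to 0.04 (GOT1) in siATF6. In replicate 2 of siControl and siATF6, whose pairs ran against their glucose labels over the 1413 genes, ASNS, GOT1, GPT2, BCAT1 and PYCR1 had lower CPM in 0 mM than in 25 mM. Some were lower in other replicates too, by smaller log2 ratios. These were GPT2 in siControl replicate 3 (-0.018) and siATF6 replicates 1 and 3 (-0.14 and -0.051), PYCR1 in siATF6 replicate 1 (-0.075) and BCAT1 in siATF6 replicate 3 (-0.056). Otherwise these genes were higher in 0 mM in replicates 1 and 3 of siControl and siATF6. The log2 ratio of ASNS was -1.31 in replicate 2 of siControl against 0.38 and 0.44 in replicates 1 and 3. Without any library of replicate 2 none of the 8 was called either, while 736 genes were in siControl. GOT1 was then nearest in siControl cells, at 0.43 (adjusted p = 0.0722). Replicate 2 was doubted for the direction of this same response, so that p does not allow for the choice.

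Knockdown at 6 h was tested over both media together. Crossed glucose labels would largely cancel in the estimate. They would still widen the spread within the labelled groups, and with it the SE and p. For siATF4 none of the 8 was called, against 0.191% of all genes (35 genes). The silenced ATF4 itself missed the threshold in this test, at -1.13 (SE 0.221, adjusted p = 0.0622 in edgeR). BCAT1 was at -0.77 (SE 0.222, adjusted p = 0.242 in edgeR), ASNS at -0.82 (SE 0.317, adjusted p = 0.402), GPT2 at -0.58 (adjusted p = 0.372) and GOT1 at -0.37 (adjusted p = 0.598). For siATF6 none was called where 7.28% of all genes were. ASNS was at 0.49 (adjusted p = 0.350) and BCAT1 at -0.12 (adjusted p = 0.792).

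**Figure D4:**
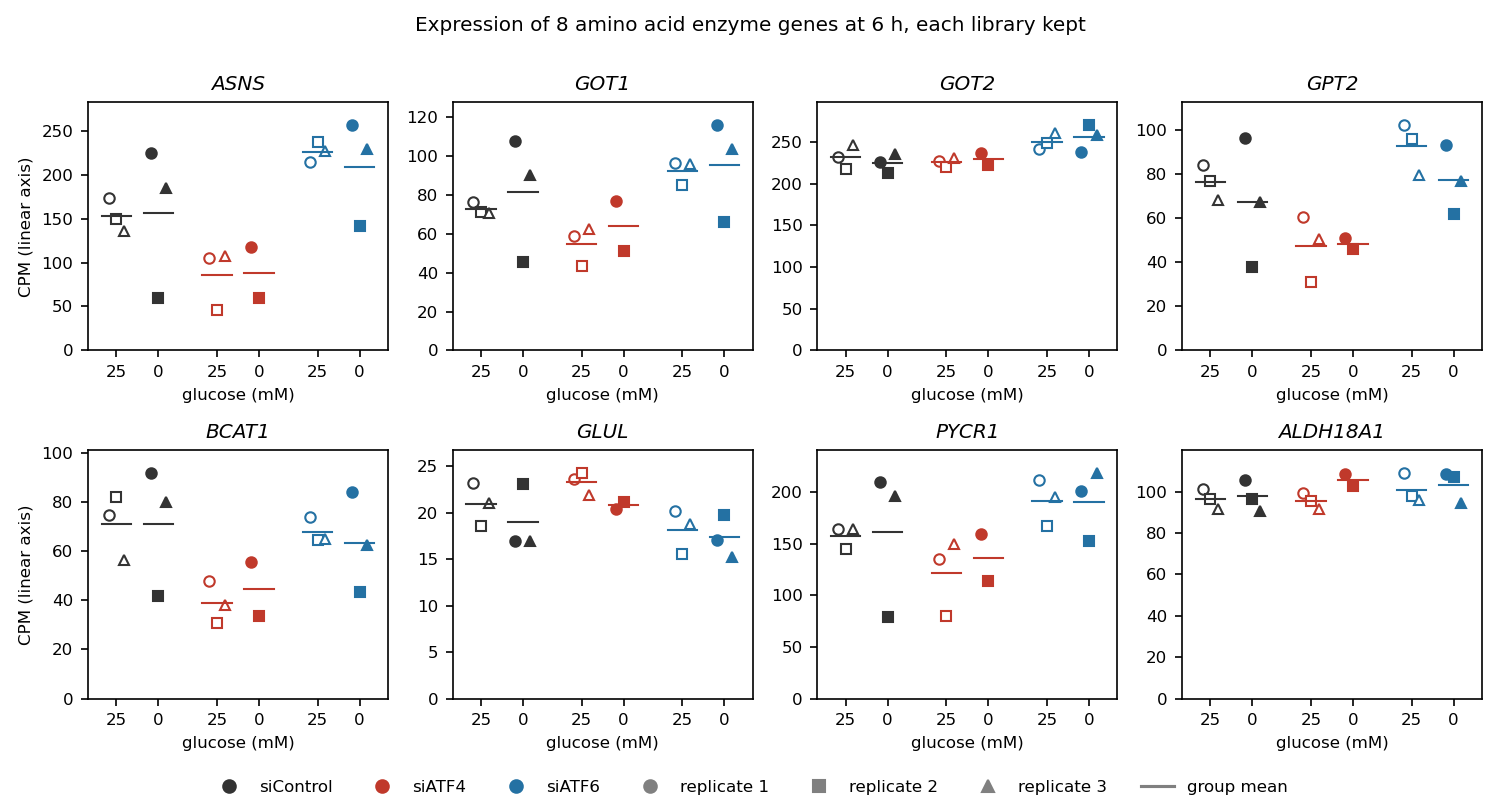
Level of each gene (CPM, linear axis) in the 17 libraries of 6 h kept, by glucose (mM) and siRNA; symbols mark replicates and bars group means. Replicate 2 (squares) in 0 mM glucose lies below replicates 1 and 3 in siControl and siATF6 for ASNS, GOT1, GPT2, BCAT1 and PYCR1.

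Levels at 16 h were compared with those at 6 h in siControl cells. In 25 mM glucose, GPT2 stood at 84.2, 76.6 and 68.2 CPM at 6 h and at 27.7, 26.4 and 26.4 CPM at 16 h, a fall of 1.51 on the log2 scale (SE 0.216, adjusted p = 0.000866 in edgeR) and in place 3 of 19030 genes by p. It was the 1 member called, against 0.273% of all genes. BCAT1 (-1.004, adjusted p = 0.173), GOT1 (-0.75, adjusted p = 0.174) and ASNS (-0.64, adjusted p = 0.561) did not pass, although none of their libraries overlapped between the times. The share of all genes without such overlap was not counted. Without the 6 h libraries of replicate 2, GOT1 (-0.76, adjusted p = 0.00967) and ASNS (-0.66, adjusted p = 0.0493) passed too. ATF4 mRNA was lower at 16 h too, with a log2 fold change of -1.12 (adjusted p = 0.0277).

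Without glucose 3 of the 8 were higher at 16 h than at 6 h, where 13.4% of all genes were called. GOT1 was higher by 1.42 (SE 0.226, adjusted p = 7.26e-05 in edgeR), PYCR1 by 1.14 (SE 0.274, adjusted p = 0.00529) and BCAT1 by 0.96 (SE 0.297, adjusted p = 0.0308). ASNS was at 0.75 (adjusted p = 0.126) and GPT2 at -0.35 (adjusted p = 0.304). Without the 6 h libraries of replicate 2, GOT1 (1.13) and PYCR1 (0.81) passed and BCAT1 did not (0.68, adjusted p = 0.156), while GPT2 was lower at 16 h (-0.63, adjusted p = 0.00422). The call of BCAT1 was also lost without replicate 3 of 6 h or replicate 1 or 2 of 16 h in this medium, and ASNS passed without replicate 1 of 6 h (1.11, adjusted p = 0.0368).

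The response to deprivation was larger at 16 h than at 6 h for 4 of the 8, where 8.62% of all genes differed in either direction. The difference in log2 response was 2.17 for GOT1 (SE 0.317, adjusted p = 4.73e-05 in edgeR), 1.96 for BCAT1 (SE 0.421, adjusted p = 0.00324), 1.51 for PYCR1 (SE 0.384, adjusted p = 0.0123) and 1.16 for GPT2 (SE 0.299, adjusted p = 0.0133). ASNS was at 1.39 (adjusted p = 0.0541) and GOT2 at -0.38 (adjusted p = 0.0577). Without the 6 h libraries of replicate 2 the values were smaller but passed for the same 4, at 1.90, 1.57, 1.24 and 0.87, and ASNS passed too (1.02, adjusted p = 0.00930). ASNS passed likewise without siControl in 0 mM at 6 h, replicate 1 (1.75, adjusted p = 0.0158). For GPT2 the larger response at 16 h stood beside a fall in 25 mM that passed and a difference of -0.35 in 0 mM that did not. Its mean in 0 mM glucose at 16 h (52.7 ± 2.47 CPM) was below its mean in 25 mM at 6 h (76.3 ± 8.00 CPM).

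Related genes of the same pathways were counted in 5 lists, to be read against the 14.6% of all genes that rose and the 14.5% that fell in siControl cells and the 0.172% called in the interaction with siATF4. Among 9 other transaminases that were tested, 3 rose without glucose in siControl cells and none fell, and 1 had a lower response in siATF4 cells. That was PSAT1, the transaminase of serine synthesis, which rose by 0.79 in siControl (from 238 ± 19.7 to 413 ± 25.9 CPM) and fell by 0.40 in siATF4 (from 181 ± 10.5 to 139 ± 17.01 CPM, adjusted p = 0.0157 in edgeR). That fall lost its call without siATF4 in 25 mM, replicate 1 (-0.35, adjusted p = 0.0661). Its interaction was -1.19 (SE 0.161, adjusted p = 0.00374 in edgeR). Of 10 tested genes of glutamine and glutamate, 3 rose and 2 fell in siControl, and again 1 had a lower response in siATF4 cells. The glutamine importer SLC1A5 rose by 0.77 in siControl (from 401 ± 15.7 to 687 ± 22.5 CPM) and was at -0.19 (adjusted p = 0.153) in siATF4, with an interaction of -0.97 (SE 0.138, adjusted p = 0.00667).

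In the 3 remaining lists no gene passed the interaction. Of 9 asparagine and aspartate genes 3 rose and 1 fell in siControl cells, led by the asparaginyl-tRNA synthetase NARS1 (0.84, adjusted p = 7.53e-06 in edgeR) and the asparaginase ASRGL1 (-1.48, adjusted p = 0.000359). Their values in siATF4 were 0.19 (adjusted p = 0.150) and -0.76 (adjusted p = 0.0312). NARS1 passed without siATF4 in 0 mM, replicate 3 (0.28, adjusted p = 0.0237). The ASRGL1 call there was lost without replicate 2 or 3 in 25 mM or replicate 1 or 2 in 0 mM, with values from -1.12 to -0.49 over the 6 libraries left out in turn. Of 7 proline genes 2 rose and 1 fell, with the collagen prolyl hydroxylase subunit P4HA1 at 0.49 (adjusted p = 0.0230). In siATF4 cells it was at 0.51 (adjusted p = 0.0190). Each P4HA1 call was lost with any of 3 of its 6 libraries left out: in siControl replicates 2 and 3 in 25 mM and 1 in 0 mM, in siATF4 replicates 2 and 3 in 25 mM and 1 in 0 mM. Of 7 genes of branched-chain amino acid uptake and breakdown 3 rose and none fell, with the transporter subunit SLC3A2 at 1.36 (adjusted p = 1.14e-05) and BCKDHB, a subunit of the branched-chain keto acid dehydrogenase, at 0.59 (adjusted p = 0.000750). In siATF4 cells they were at 1.06 (adjusted p = 0.000155) and 0.60 (adjusted p = 0.000946). The medians of the 5 lists in the interaction lay between -0.18 and 0.18, beside -0.01 over all genes and -0.70 over the 8 members.

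Across the 18 libraries of 16 h, levels on the log2(CPM + 1) scale were correlated between genes as a description. The points share 6 groups, and genes that differ between these groups correlate for that. ASNS went most closely with GPT2 among the members (Pearson r = 0.904), GOT1 with PYCR1 (0.896) and with BCAT1 (0.862), and GOT2 ran opposite to BCAT1 (-0.949). GLUL had its largest value with PYCR1 (-0.408). Of 11211 genes with a mean of at least 5 CPM, those most like ASNS were PHGDH of serine synthesis (0.956), DDIT4 (0.948) and ATF4 itself (0.941). Most like GPT2 were SLC1A5 (0.963), DDIT4 (0.961) and TBC1D20 (0.951). Most like GOT1 were GARS1 (0.991), BEX2 (0.989) and NDRG1 (0.987), and most like BCAT1 were SGTB (0.984), ESYT1 (0.975) and CREBRF (0.968). PYCR1 went with U2AF1L4, RARA-AS1 and DXO (0.971, 0.971 and 0.970), GOT2 with POLR2D, PRMT7 and SMPD4 (0.986, 0.976 and 0.976), GLUL with GPR176 and STX6 (0.921 and 0.916), and ALDH18A1 with ZBTB9, MRS2 and DNAAF2 (0.897, 0.894 and 0.887).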

How the data were processed

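Poly(A)-enriched, non-stranded RNA libraries were read as pairs of 150 bases, per the labels. The authors deposited 1 table of RSEM expected counts (estimated counts per gene, need not be whole), made with fastp, STAR and RSEM on GRCh38 per the submitters' processing notes; versions and the annotation release are not given in the sources used here. RSEM divides reads shared by overlapping genes by its model, which bears on ASNS. The table's other columns, gene length and effective length, were used for TPM only. Counts were matched to 36 libraries through the labels, rounded and tested in edgeR 4.0.16 (R 4.3.3). Genes were kept by filterByExpr on the groups (at least 10 counts, total at least 15), scaled by TMM and fitted with 1 mean per group, then tested by robust quasi-likelihood F tests with Benjamini-Hochberg adjustment over all genes at 0.05. The 18 libraries of 16 h, 17 of 6 h and 35 of both times were fitted apart, for 18 comparisons. CPM were scaled by TMM over 35 libraries. The smallest mean chi-square per gene between replicates was 8.44, so none were duplicates. The labels call replicates biological, and p-values measure the spread between cultures of 1 line. The main fit has no term for the transfected culture, so wells split from the same culture count as independent in it.

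All 8 members are named in every comparison or counted there. Of 5 pathway lists, the genes called in the siATF4 interaction at 16 h are named or, where none was, the 2 with the smallest adjusted p in siControl at 16 h; for each member the 3 genes of most like pattern are named. A few items these rules would name are not reported here. Members, lists, the libraries left out and the tests were chosen with earlier results of these data known. Alternatives were DESeq2 1.42.0, median-of-ratios size factors, no filter, only the groups compared, all 36 libraries, each library left out, replicate number or transfection as a block, AC079781.5 added to ASNS, and 6 h replicate 2 excluded. The procedure was tested on simulated counts for deprivation in siControl at 16 h only. These were drawn independently for each library, so they do not bear on shared cultures. Exon overlaps came from GENCODE 29, promoters from RefSeq.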

Additional observations from a re-analysis of the deposited data

Results flagged for a closer look

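The following differences between groups, 6 in all, were past an adjusted p of 0.05 in edgeR. At 16 h, the response to deprivation was lower in siATF4 than in siControl cells for GPT2 (-1.27 on the log2 scale) and ASNS (-1.24). In siControl cells it was larger at 16 h than at 6 h for GOT1 (2.17), BCAT1 (1.96), PYCR1 (1.51) and GPT2 (1.16). What flagged them was a test of the difference itself, as an interaction. Without the 6 h libraries of replicate 2 the values of the second set were 1.90, 1.57, 1.24 and 0.87. In the first set, the ASNS call was lost without any 1 of 6 libraries and with the transfected culture as a block. The GPT2 call held in these settings.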

How the results depend on the processing

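Over all 144 member values (8 genes in 18 comparisons), none of the 35 called ones changed sign in any setting run, while 49 of the 109 not called did so in at least 1. Of 513 alternative values of the called ones, 436 were still called, and 2 of the 35 passed in every setting. Another scaling, no filter on low counts, and AC079781.5 added to ASNS kept every count of called members within 1.5 times.

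With DESeq2, 1 member was called for siATF6 over siControl in 0 mM (8.71% of all genes), 5 for 16 over 6 h in 0 mM (16.5%) and 7 for the larger response at 16 h (11.6%). Fitted with only the groups compared, 0 were called for siATF4 over siControl in 0 mM (0% of all genes), 1 for siATF4 over siATF6 (0.0424%), 1 for the siATF4 interaction (0.0343%), 2 for time in 25 mM (0.698%) and 1 for time in 0 mM (6.76%). With the library of low depth included (all 36 libraries), the counts were 1 for deprivation in siControl (2.83% of all genes) and in siATF6 (4.44%) at 16 h. They were 0 in the 8 other comparisons that had calls, and GOT1 at 6 h in siATF4 cells turned to -0.36. Without the 6 h libraries of replicate 2, a choice that leaves siATF4 in 0 mM with 1 library assumed to vary like the others, time in 25 mM gave 3 calls and GPT2 in siControl at 6 h turned to 0.10.

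With a replicate block, 5 members were called for deprivation in siATF4, 1 for siATF6 over siControl in 0 mM, 4 for the siATF4 interaction, 2 for time in 25 mM, 7 for the larger response at 16 h and, at 6 h, 1 for siATF4 (BCAT1, -0.80, adjusted p = 0.0277 in edgeR). Of all genes, 38%, 10.2%, 0.794%, 1.22%, 13.3% and 2.38% were called in these comparisons, in the same order. With the transfection as a block the siATF4 interaction called 1 (0.0666% of all genes). The labels do not say that a number marks a shared culture or day across siRNAs. Deviations of same-numbered libraries correlated above 0.1 in 41 of 45 pairs at 16 h (lowest -0.663) and 35 of 40 at 6 h (lowest -0.239), and 14 of 18 and 17 of 17 libraries correlated best with their own number, a hint from the data and not the design.

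With 1 library left out, called members were 2 to 5 for deprivation in siATF4, 1 to 3 for its interaction, 3 to 5 for siATF4 in 0 mM and 0 to 1 for siATF6 in 25 mM. Uncalled members changed sign 91 times. Of those printed above, GLUL did so under deprivation in siControl (-0.32 to 0.33) and siATF6 (-0.65 to 0.063) and in the interaction (-0.71 to 0.082). Under siATF4 ASNS did so in 25 mM (-0.16 to 0.047) and, in 0 mM, GLUL (-0.61 to 0.18) and PYCR1 (-0.21 to 0.28). At 6 h GOT1 did so in siControl (-0.084 to 0.46), siATF4 (-0.11 to 0.49) and siATF6 (-0.13 to 0.26). GPT2 did in siControl at 6 h (-0.53 to 0.11) and over time in 0 mM (-0.63 to 0.0031).

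Counts over all genes moved by more than 1.5 times as follows. With DESeq2 the siATF4 interaction called 202 genes instead of 31, siATF4 over siControl 3707 instead of 2235 in 0 mM, 170 instead of 8 in 25 mM and 214 instead of 35 at 6 h, siATF6 over siControl 1569 (725), 500 (135) and 2175 (1336), siATF4 over siATF6 2409 (1488), and time in 25 mM 207 (52). With the replicate block the same comparisons called 143, 4076, 38, 436, 1836, 531, 3498, 2861 and 233, and the larger response at 16 h 2532 (1641). With only the groups compared they called 6, 0, 0 and 1, then for siATF6 942 in 25 mM and 580 at 6 h, 7 and 119, and deprivation in siATF4 1225 (5233) and time in 0 mM 1142 (2555). With no filter siATF4 in 0 mM called 1452, siATF6 448, 77 and 776, siATF4 over siATF6 927, time in 25 mM 23 and the larger response 973. The transfection block left 12 in the siATF4 interaction. With all 36 libraries deprivation called 531 (5229), 325 and 831 (6033) in siControl, siATF4 and siATF6 at 16 h and 2212 in siATF4 at 6 h, and between 0 and 74 in each other comparison with called genes. The siATF6 interaction, with 0 genes, called 18 with DESeq2, 7 with only the groups compared and 2 with the block. Without replicate 2 of 6 h deprivation called 736, 220 and 343 there, siATF4 20, siATF6 537, time in 25 mM 169 and the larger response 883. With 1 library left out, siATF4 in 0 mM called 543 (without siControl replicate 3) to 4029 genes (without siATF4 replicate 2), in 25 mM 2 to 10 and at 6 h 3 to 23. Over the same settings siATF6 called 207 to 890 in 0 mM, 19 to 92 in 25 mM and 750 to 1229 at 6 h, siATF4 over siATF6 572 to 2356, the interactions 11 to 50 (siATF4) and 0 to 1 (siATF6), time 5 to 38 in 25 mM and 1424 to 2354 in 0 mM, and the larger response 914 to 1802, so the background shares of these comparisons move with single libraries. The cause of these shifts was not tested.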
